A study of Homo sapiens with 4 samples.

Results

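HA-TRIM24 ChIP-seq in LNCaP cells gave 9006 binding sites with the synthetic androgen R1881 and 4954 with its ethanol vehicle on chromosomes 1 to 22 and X, of 107370 sites in the 4 site lists of the series. An R1881 site was called kept when it overlapped an ethanol site by at least 1 bp and gained when it overlapped none. An ethanol site that overlapped no R1881 site was called lost. This gave 6708 gained, 2298 kept and 2656 lost sites. LNCaP is an established, androgen-sensitive line derived from prostate cancer. In both samples the cells stably expressed HA-TRIM24, had spent 3 days in 5% charcoal-stripped serum, which lacks most steroids, and received ethanol or 10 nM R1881 for 16 h before fixation in 1% formaldehyde. The antibody against the HA tag reads the introduced protein, so untagged TRIM24 was not measured. TRIM28 was precipitated from LNCaP cells given the same ethanol or R1881 treatment, and its sites are used here for comparison. Each condition is 1 sample, without a replicate and without an input library. No test between the conditions is therefore given, and an effect of R1881 cannot be told apart from a difference between 2 cultures or 2 libraries. All intervals below cover counting error only.

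TRIM24 is a chromatin-bound cofactor that reads histone tails through its PHD finger and bromodomain and contacts nuclear receptors through an LxxLL motif. Androgen acts on genes through androgen response elements (AREs), inverted repeats that often lie far from promoters. In prostate cells many of these elements lie in chromatin opened by the forkhead factor FOXA1.

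The sequences below are examples of motifs in sites of these classes. The first set holds the strongest gained sites with an ARE, searched as AGAACA and TGTTCT with 3 bases of any kind between them, on both strands in the 200 bp around the site centre, here with at most 1 mismatch. The ARE is in capitals, and all sequences are from GRCh37, the assembly that corresponds to hg19, read 5′ to 3′ on the plus strand. Strength is given throughout as the deposited normalized tag count, that is, tags in the site per 10000000 tags of the library.
ST8SIA1, intron, chr12:22302262-22302418, 22.5 normalized tags: ggaaacTGAACAACCTGTTCTtgaatg
HSPH1 (nearest), intron of the pseudogene WDR95P, chr13:31667171-31667327, 18.6 normalized tags: tagaacTGAACAGCATGTTCTggggat
SOX13, intron, chr1:204058191-204058347, 17.9 normalized tags: cagccaAGCACATTCTGTTCTccagtg
FAM72D, intergenic, chr1:143991063-143991219, 16.3 normalized tags: tgtgccAGAACATTATGCTCTtcaggt
FAM72B, intergenic, chr1:120760919-120761075, 15.5 normalized tags: acctgaAGAGCATAATGTTCTggcaca
POTEE, intron, chr2:131989152-131989308, 15.5 normalized tags: tttgttAGAACAAGATGCTCTgctacc
The FAM72D and FAM72B stretches are reverse complements of each other, so these are copies of 1 sequence and reads could be assigned to either. By the definition of a gained site, none of the 6 overlapped a site listed with ethanol. The gene name is that of the nearest protein-coding start site and names a position, not a shown target.

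The second set holds gained sites with an ARE of at most 2 mismatches near genes of the androgen response list.
STEAP4, intron, chr7:87932886-87933042, 11.6 normalized tags: tttagtAGAATAGTGTGTTCTtttgca
STK39, intron, chr2:168943499-168943655, 9.3 normalized tags: acgataGGAACACTCTGTCCTggtaag
HSD17B14, intron, chr19:49322968-49323124, 9.3 normalized tags: taaagcAAAACACACTCTTCTgaactc
TNFAIP8, intron, chr5:118606761-118606917, 7.8 normalized tags: gtcgtgAGGACAGGCTGTCCTgggatc
Of the 93 gained sites within 50 kb of a gene of this list, these 4 held an ARE by this search. That is a share like that of all gained sites, of which 300 of 6708 (4.47%) held one.

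The third set holds kept sites that were higher with R1881 and held the B box, searched as GGTTCGA followed by 2 bases of any kind and C, and shown in capitals. The B box is part of the internal promoter of tRNA genes, where the factor TFIIIC binds for RNA polymerase III.
KCTD2, intron, chr17:73031160-73031316, 19.0 normalized tags with ethanol and 69.1 with R1881: agattgagGGTTCGAGTCccttcgtg
RNASE11, intergenic, chr14:21093525-21093681, 7.8 normalized tags with ethanol and 26.4 with R1881: ggggcgtgGGTTCGAATCccaccact
VAC14, intron, chr16:70823376-70823532, 7.8 normalized tags with ethanol and 26.4 with R1881: gaggcccgGGTTCGATTCccggccaa
A tRNA gene annotation on this assembly was not used here, so these sites are described by the motif alone.

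The R1881 library held 12884097 tags and the ethanol library 11606880, 0.901 times as many. Per the file headers, the authors' false discovery rate of 0.001 set a threshold of 9 tags in either library, which is 6.98 normalized tags with R1881 and 7.75 with ethanol. Every listed site met it by the deposited score, while the normalized tag count lay below 9 tags at 461 R1881 and 202 ethanol sites and reached down to 7 tags. Tags in sites made up 1.73% of all tags with R1881 and 1.36% with ethanol. Median site strength was 9.3 normalized tags with R1881 (interquartile range 7.8 to 11.6) and 10.3 with ethanol (8.6 to 13.8), so most sites lay close to the limit of detection. The absence of a listed site therefore does not show absence of binding.

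Gained sites were 74.5% of the R1881 sites (Wilson 95% interval 73.6 to 75.4), and lost sites were 53.6% of the ethanol sites (52.2 to 55.0). The share of sites kept was larger at stronger sites in both lists. Of the 2920 R1881 sites under 8 normalized tags, 11.2% were kept (10.1 to 12.4). Of the 420 sites from 15 to under 20, 51.0% were kept (46.2 to 55.7), and of the 358 sites at 50 or more, 94.7% were kept (91.9 to 96.6). Ethanol sites were kept more often than R1881 sites in each class below 50 normalized tags, with 26.1% of 752 sites under 8 kept (23.0 to 29.3) and 75.1% of 373 from 15 to under 20 (70.4 to 79.2). At 50 or more the shares met, with 93.4% of 258 ethanol sites kept (89.7 to 95.9). Gained and lost sites had like strengths, with medians of 8.5 normalized tags (interquartile range 7.8 to 10.1) and 9.5 (8.6 to 11.2), while kept sites had a median of 12.4 with R1881 (9.3 to 27.2).

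**Figure D1:**
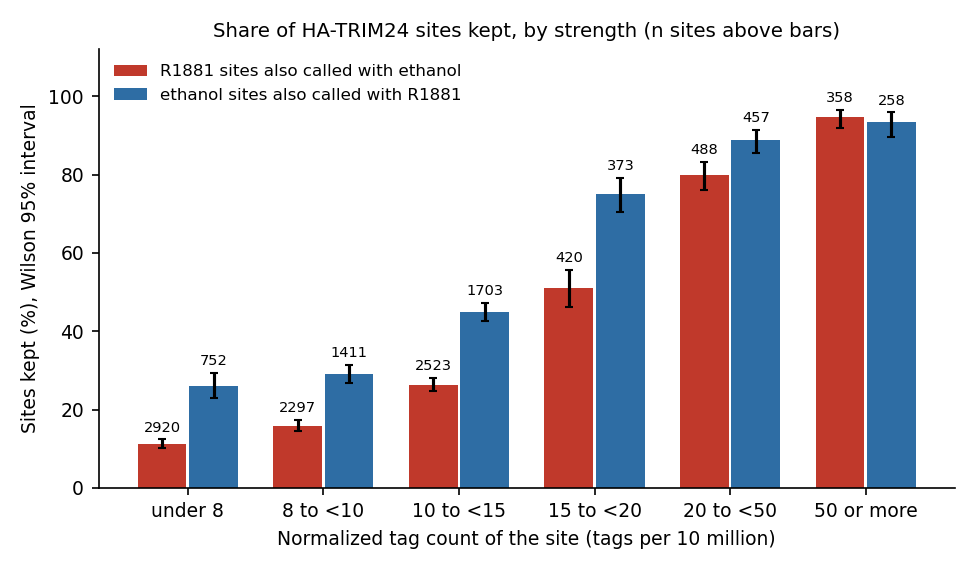
Share of HA-TRIM24 sites that overlapped a site of the other condition (y axis, percent, with Wilson 95% intervals) by normalized tag count of the site (x axis, tags per 10000000), for R1881 sites in red and ethanol sites in blue, with the number of sites above each bar. Shares rise from 11.2% and 26.1% in the weakest class to 94.7% and 93.4% in the strongest.

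Sites well above the limit were counted separately. In the gained class, 323 sites (4.82%) reached 15.5 normalized tags, 2 times the ethanol minimum, and 257 of these lay away from assembly gaps and chromosome ends. In the lost class, 204 sites (7.68%) reached 14.0 normalized tags, 2 times the R1881 minimum, and 125 lay away from gaps and ends. The strong gained sites were thus 1.58 times as many as the strong lost sites, and 2.06 times as many away from gaps and ends. Stacked tags were more common among the strong lost sites. In 56 of the 125, the tags numbered at least 1.5 times the deposited score, which limits tags to 1 per base, as against 26 of the 257 strong gained sites. The part of stacked tags in these counts was not tested.

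Away from gaps and ends here means more than 5 Mb from the longest assembly gap of the chromosome, which usually marks the centromere, and more than 200 kb from either end. Sites nearer than this were 23.4% of kept (21.7 to 25.2), 14.3% of lost (13.0 to 15.7) and 9.76% of gained sites (9.08 to 10.5). They include the 5 strongest kept sites, all intergenic near the longest gap. The strongest, on chromosome 1 and nearest to FAM72B, had 8284.7 normalized tags with ethanol and 7328.4 with R1881. The next, on chromosome 19 and nearest to UQCRFS1, had 2524.4 and 2152.3. Both were lower with R1881 by more than counting error, with ratios of 0.885 (0.860 to 0.910) and 0.853 (0.809 to 0.898). Both were also listed for TRIM28, at 13280.1 and 4002.4 normalized tags with ethanol. At the 520 kept sites near gaps or ends that held no B box, the median log2 ratio of R1881 to ethanol was -0.15.

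Promoter shares differed little by class. Promoters, within 2 kb of a GENCODE start site, held 47.4% of gained sites (46.2 to 48.6), 45.4% of kept sites (43.4 to 47.4) and 49.4% of lost sites (47.5 to 51.3). Away from gaps and ends the shares were 48.2%, 52.6% and 51.9%. Introns outside promoters held 31.4% of the gained sites there (30.3 to 32.6), 25.7% of the kept (23.8 to 27.8) and 29.1% of the lost (27.2 to 31.0). Intergenic sites numbered 1343 of all 6708 gained sites (interval 19.1% to 21.0%), and made up 31.2% of all kept (29.4 to 33.2) and 22.1% of all lost sites (20.6 to 23.8). Away from gaps and ends they made up 18.2%, 19.8% and 17.2%, with overlapping intervals. Coding exons and 3′UTRs each held under 1% of every class. Within 500 bp of the nearest start site lay 38.1% of gained, 36.3% of kept and 41.8% of lost sites. Promoter sites were GC-rich in every class, with median GC contents of 67.0%, 63.0% and 66.5%, against 43.0%, 44.0% and 42.5% at distal sites.

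The ARE separated the gained sites from the other classes. An ARE with up to 2 mismatches was present in 300 of the 6708 gained sites, or 4.47% (4.0 to 4.99), against 1.19% of the windows 5 kb to each side of them (1.02 to 1.39). In kept sites it was present in 16 of 2298, or 0.696% (0.429 to 1.13), and in lost sites in 18 of 2656, or 0.678% (0.429 to 1.07). Both of the latter shares overlap those of their own flanking windows, at 0.979% and 1.20%. At distal sites away from gaps and ends, outside promoters, the share was 7.43% of gained (6.56 to 8.40), 1.20% of kept (0.652 to 2.19) and 0.913% of lost sites (0.497 to 1.67). At gained promoters it was 1.85% (1.42 to 2.41). Among gained distal sites the ARE was in 6.21% of those under 8 normalized tags (4.97 to 7.74), 8.89% of those from 10 to under 15 (7.23 to 10.9) and 15.9% of those from 15 to under 20 (10.6 to 23.1). Of the 54 at 20 or more, 7.41% held one (2.92 to 17.6). With at most 1 mismatch, 61 gained sites held an ARE (0.909%), as against 3 kept (0.131%) and 2 lost sites (0.0753%), and 0.0671% of the windows beside gained sites.

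The forkhead motif, searched as TGTTTAC, did not separate gained from lost sites to the same degree. It was present in 11.1% of gained (10.4 to 11.9), 7.22% of kept (6.24 to 8.36) and 9.19% of lost sites (8.15 to 10.3), each above the flanking windows at 2.91%, 2.42% and 2.64%. At distal sites away from gaps and ends it was in 18.3% of gained (17.0 to 19.7), 12.9% of kept (10.8 to 15.4) and 16.6% of lost sites (14.5 to 18.9). The intervals of gained and lost sites overlap there. Of the 300 gained sites with an ARE, 51 also held the forkhead motif (17.0%, 13.2 to 21.7), and of the other gained sites 10.8% did (10.1 to 11.6).

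Of the promoter motifs, ETS and NRF1 had like shares in the classes. At promoters away from gaps and ends, the ETS motif CCGGAAG was in 9.37% of gained (8.36 to 10.5), 11.1% of kept (9.27 to 13.3) and 10.8% of lost sites (9.18 to 12.7). The NRF1 motif, GCGCA and GCGC with 1 base of any kind between them, was there in 4.08%, 3.89% and 4.23%. Both lay well above their flanking windows, of which 0.806% at most held the first and 0.127% at most the second. ETS factors and NRF1 are activators of many housekeeping promoters. At distal sites the AP-1 motif TGANTCA was in 9.94% of gained (8.94 to 11.0), 8.38% of kept (6.69 to 10.5) and 9.41% of lost sites (7.82 to 11.3). Its shares in the flanking windows were 5.75%, 7.25% and 6.30%, and the intervals of kept sites and their flanks overlap. The B box was most frequent in kept sites, at 8.27% (7.21 to 9.46), as against 0.656% of gained (0.489 to 0.879) and 0.188% of lost sites (0.0804 to 0.440). The difference was also there with position held, at 11.3% of kept (9.29 to 13.6), 0.765% of gained and 0.183% of lost distal sites, and at 8.43% (6.81 to 10.4), 0.549% and 0.254% of promoters. Strength was not held. Kept B box sites had a median of 49.3 normalized tags with R1881, against 12.4 at all kept sites, and stronger sites were kept more often. The part of strength in this difference was not tested. A shorter search for AGAACA alone, 1 arm of the ARE, found it in 29.5% of gained (27.9 to 31.1), 14.3% of kept (12.0 to 16.8) and 12.1% of lost distal sites (10.3 to 14.2). Their flanking windows held it at 15.7%, 13.7% and 15.3%, so only the gained share lay clearly above its flanks.

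**Figure D2:**
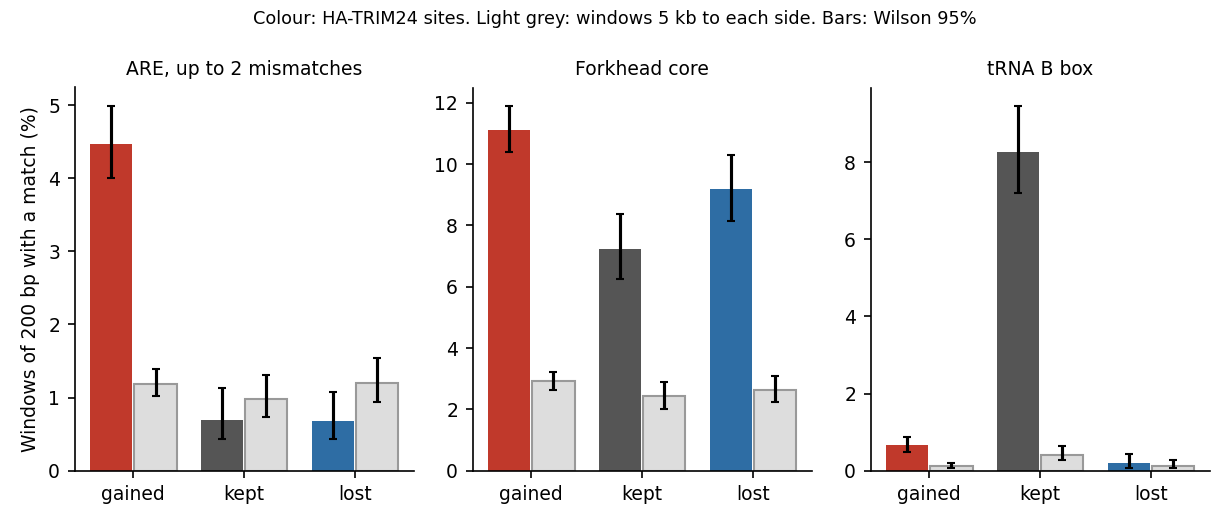
Share of 200 bp windows with a motif match (y axis, percent, with Wilson 95% intervals) for gained, kept and lost HA-TRIM24 sites in colour and for windows 5 kb to each side of them in light grey, with a separate scale per motif. The ARE stands out in gained sites (4.47%), the forkhead core lies above the flanking windows in every class, and the B box stands out in kept sites (8.27%).

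At the 2298 kept sites the median log2 ratio of R1881 to ethanol normalized tags was -0.025 (quartiles -0.31 and 0.35), and 1094 sites were higher with R1881. Sites at least 2 times higher with R1881 numbered 139 (6.05%), and sites at least 2 times lower numbered 39 (1.70%). The exact binomial interval of the ratio lay above 1 at 243 sites and below 1 at 87. Across the 1760 kept sites away from gaps and ends, log2 normalized tags of the conditions had a Pearson correlation of 0.833, a description across sites called in both libraries.

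Kept sites with a B box or at a 5S rRNA gene were higher with R1881 as a group. tRNA and 5S genes are transcribed by RNA polymerase III, but whether each B box site is such a gene was not tested, and the motif was also in 0.413% of windows beside kept sites. The 190 kept sites with a B box had a median of 27.6 normalized tags with ethanol (range 6.0 to 103.4) and 49.3 with R1881 (6.2 to 190.9). Of these, 179 were higher with R1881, 62 (32.6%) were at least 2 times higher and 0 were at least 2 times lower, beside 6.05% and 1.70% of all kept sites. Their median ratio was 1.76. The 48 such sites of the tRNA-rich stretch of chromosome 6 from 26305628 to 28950080 had medians of 17.6 and 33.0, and 45 were higher with R1881. All 24 between 161369490 and 161582618 on chromosome 1 were higher with R1881, with medians of 41.8 and 78.4. All 5 between 3200661 and 3241642 on chromosome 16 were too, with 19.8 and 40.4. Whether sites within these stretches are copies of the same sequence was not tested, so they may not be separate measurements.

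The 5S genes, which encode the small rRNA of the large ribosomal subunit, stand in a tandem array on chromosome 1, and 16 kept sites lay on them between 228745991 and 228781914. With ethanol they had 31.9 to 56.0 normalized tags (median 43.5), and with R1881 75.3 to 111.8 (median 101.3), so the ranges did not overlap. The ratios ran from 1.77 at RNA5S17 (1.31 to 2.43) to 2.83 at RNA5S3 (1.99 to 4.11), and the interval lay above 1 at all 16. These genes are near-identical copies whose reads can be placed on any of them, so they count as 1 array rather than 16 measurements.

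Other kept sites of like strength had smaller ratios. With a geometric mean of both conditions from 20 to under 100 normalized tags, the 170 sites with a B box or 5S gene had a median log2 ratio of 0.88, and 167 were higher with R1881. In the same range the median was 0.25 at 90 promoters without either, 0.12 at 129 distal sites and -0.092 at 163 sites near gaps or ends. At the 108 sites with a B box or 5S gene where TRIM28 was listed in both conditions, its median log2 ratio was -0.011, and that of HA-TRIM24 was 0.80. Measured as the fold over the surrounding 10 kb, the median log2 ratio of all 206 B box and 5S sites was 0.42, in place of 0.87 by normalized tags.

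**Figure D3:**
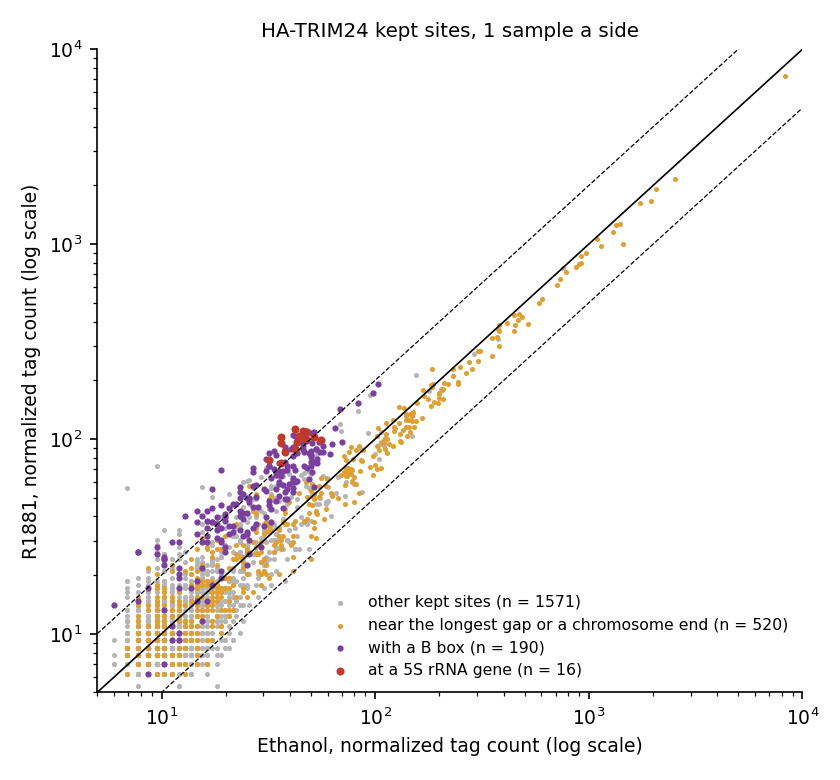
Normalized tag count of each kept HA-TRIM24 site with ethanol (x axis, log scale) and R1881 (y axis, log scale), with the line of equality and dashed lines at 2 times higher and lower. Sites with a B box (purple, n = 190) and at 5S genes (red, n = 16) lie mostly above equality, sites near the longest gap or a chromosome end (yellow, n = 520) lie along it or just below. Kept sites of genes not reported here are not drawn.

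Kept sites with large ratios included TACC2 (6.9 normalized tags with ethanol, 55.9 with R1881, ratio 8.11, interval 3.90 to 19.5), in an intron of a gene for a centrosomal protein. At the promoter of TRIM3 the values were 9.5 and 73.0, a ratio of 7.70 (4.11 to 15.9). PARP14 and CCDC136 had intergenic sites with ratios of 3.65 and 3.19, and a site with a B box 37.0 kb from BTN3A2, in an intron of the non-coding gene ENSG00000287050, had 3.20. TACC2, TRIM3 and PARP14 also had TRIM28 sites with R1881, at 14.1, 12.6 and 21.1 normalized tags, and with ethanol TRIM3 and PARP14 had 6.0 and 6.4 while none was listed at TACC2. Sites with the smallest ratios had few tags. A site 7.02 kb from the start of GP9, at the promoter of ENSG00000290001, had 18.1 normalized tags with ethanol and 5.4 with R1881 (ratio 0.300, 0.108 to 0.733). The promoter of GART, an enzyme of purine synthesis, had 20.7 and 8.5 (0.413, 0.183 to 0.876).

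Among known androgen-regulated genes, KLK3, which encodes prostate-specific antigen, had 1 site, kept 4.05 kb upstream of its start and holding a forkhead motif. It had 10.3 normalized tags with ethanol and 22.5 with R1881, a ratio of 2.18 (1.08 to 4.68). KLK2, its neighbour and a related protease, had a gained promoter site of 11.6 and a promoter site kept at 12.1 and 13.2 (1.09, 0.507 to 2.40). A gained site of 17.1 was also nearest to KLK2 but lay 12.3 kb from its start, at the promoter of KLKP1. FKBP5, a chaperone partner of steroid receptors, gained an intronic site of 21.7 and a promoter site of 11.6. SLC45A3 gained sites of 17.1 and 11.6, STEAP4 gained 1 intronic site of 11.6, and TMPRSS2 gained 1 intronic site of 8.5. Intergenic gained sites of 9.3 and 7.8 also had STEAP4 as the nearest protein-coding gene, but lay 84.6 and 85.8 kb from its start. At TMPRSS2 and FKBP5 no TRIM28 site overlapped in either condition.

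In the androgen response list, 56 of 103 genes (54.4%, 44.8 to 63.7) had a gained site within 50 kb, beside 20.2% of all 20090 protein-coding genes. Kept sites were assigned to 10 of the genes (9.71%, 5.36 to 17.0; all genes 6.43%) and lost sites to 17 (16.5%, 10.6 to 24.9; all genes 8.89%). The gained sites had a median of 9.3 normalized tags. Further examples were CAMKK2, a kinase induced by androgen (promoter, 20.2), STK39 (19.4), UAP1 of UDP-sugar synthesis (intron, 17.1) and a site of 16.3 at the pseudogene RPL32P20, nearest to NDRG1. Lost sites of this list were ELL2 at 22.4, NGLY1 at 16.4 and BMPR1B at 12.9. ABHD2 had a lost promoter site of 11.2 and a separate kept intronic site, with 10.3 normalized tags with ethanol and 17.9 with R1881. With only sites within 2 kb of a start site counted, 32 of the 103 genes (31.1%, 22.9 to 40.5) had a gained site, beside 12.4% of all genes. Kept sites within 2 kb were found at 4 of the genes (3.88%, beside 3.69% of all genes) and lost sites at 9 (8.74%, beside 5.35%). The genes of this list were known as androgen-regulated before these data, and the parts of gene length and expression level in the share were not tested.

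Among cofactors of androgen signalling, FOXA1 gained sites of 13.2, 10.9 and 9.3 and lost one of 12.9. The promoters of the coactivators CREBBP (39.6 with ethanol, 34.2 with R1881) and NCOA3 (12.1 and 11.6) kept their sites. TRIM24 kept its promoter site at 15.5 and 14.0 (0.901, 0.442 to 1.84) and gained sites of 7.8 in a coding exon and 7.0. TRIM28, which lies within 200 kb of the end of chromosome 19, had gained sites of 15.5, 8.5 and 7.8 and a lost one of 8.6. SPOP, the ubiquitin ligase adaptor that targets TRIM24, had promoter sites of 6.2 gained and 7.8 lost, both with a score at the threshold of 9.

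Of the other lists, sterol and fatty acid synthesis had gained sites at 9 of 22 genes (40.9%, 23.3 to 61.3), among them SCAP (14.0) and ACACA (13.2), and lost sites at 2 (9.09%, beside 8.89% of all genes). Retinoic acid genes had gained sites at 7 of 19 (36.8%, 19.1 to 59.0), led by ALDH1A1 (18.6), and lost sites at 5 (26.3%, 11.8 to 48.8). The p53 targets had 8 of 23 (34.8%, 18.8 to 55.1), all within 2 kb of a start site (all genes 12.4%), such as SESN2 and SESN1 (both 10.9), and lost sites at 4 (17.4%, 6.98 to 37.1), also all within 2 kb (all genes 5.35%). Ribosomal protein genes had gained sites at 20 of 63 (31.7%, 21.6 to 44.0) and lost sites at 13 (20.6%, 12.5 to 32.2). Each of these genes had such a site within 2 kb of a start site, beside 12.4% and 5.35% of all genes. A kept site 245 bp upstream of the start of RPS29 had 25.0 normalized tags with ethanol and 60.5 with R1881. Whether it belongs to this gene was not tested. The unfolded protein response had gained sites at 6 of 24 (25.0%, 12.0 to 44.9), and the cell cycle at 7 of 38 (18.4%, 9.22 to 33.4), 6 of them within 2 kb of a start site (15.8%, 7.44 to 30.4, beside 12.4% of all genes), such as CDC25A (10.1) and PLK1 (9.3). Both shares are near that of all genes, 20.2%, and the intervals of the retinoic acid and p53 lists within 50 kb also include it.

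**Figure D4:**
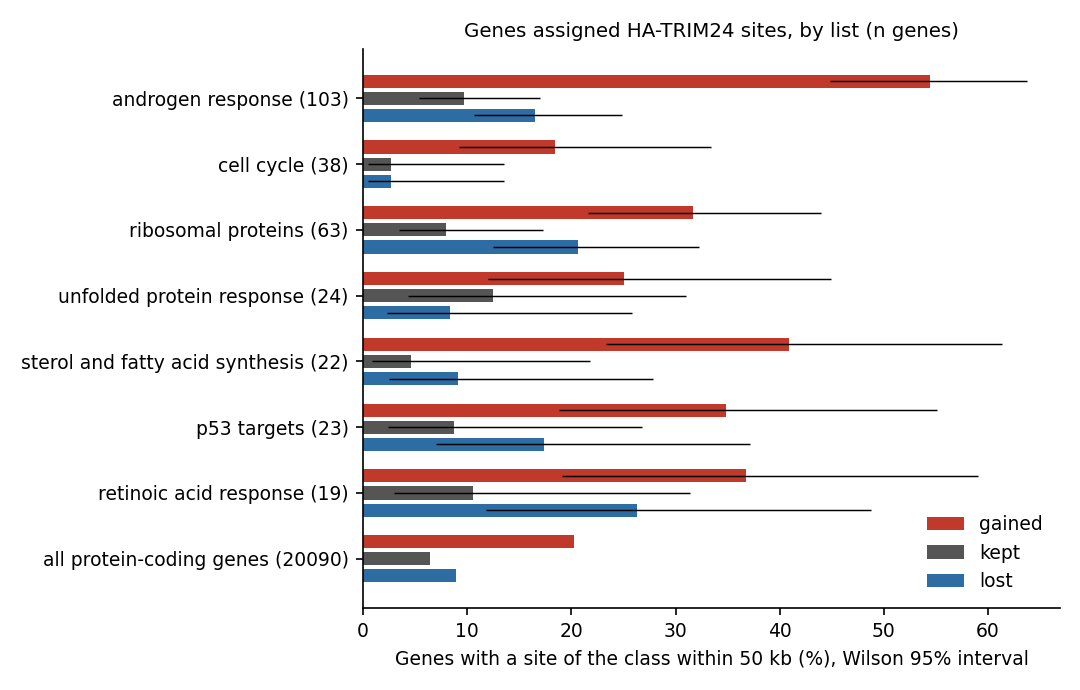
Percent of genes in each list reported here (x axis, with Wilson 95% intervals) whose nearest start site was within 50 kb of a gained (red), kept (grey) or lost (blue) HA-TRIM24 site, with all 20090 protein-coding genes at the bottom. The androgen response list reaches 54.4% for gained sites, against 20.2% of all genes.

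The strongest gained sites away from gaps and ends, chosen after their values were seen, were of several kinds. Among distal ones, 3 B box sites nearest to FCGR2A on chromosome 1 had 97.0, 92.4 and 54.3 normalized tags. Their fold over the surrounding 10 kb with R1881 was 5.03, 4.99 and 4.53, close to the lowest fold that the site calling accepted. Whether tags at these sites with ethanol failed that local requirement was not tested, so their gain may reflect the calling. RAB3B had an intronic site of 44.2. Intergenic sites of 41.1 and 25.6 were nearest to PMEPA1, an androgen-induced inhibitor of TGF-beta signalling, at 51.9 and 61.8 kb from its start. An intronic site at ATAD2 with an ARE and a forkhead motif had 38.8, and KDM4B, a histone demethylase, had intronic sites of 31.0 and 23.3. By the rule over all sites, 8 of the 10 strongest distal sites lay near a gap or end, led by 1262.0 near the longest gap of chromosome 7. Among promoters, TRIM49D1 and TRIM49D2, near-identical copies, had 54.3 and 45.0, and ALOXE3 had 34.9 at a B box. The genes with the most gained sites were KCNMA1 and ZBTB16, with 8 each, followed by ANK3, NAALADL2, PPFIA2, ST3GAL1 and THRB with 7. Lost sites numbered 4 at NAALADL2, 3 at PPFIA2, 2 at ZBTB16, 1 each at KCNMA1, ST3GAL1 and THRB, and 0 at ANK3. The part of gene length in these counts was not tested. ZBTB16, a transcriptional repressor, had gained sites of 7.0 to 31.8.

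A gained and a lost site can be neighbours. In all, 266 gained sites (3.97%) and 257 lost sites (9.68%) had a site of the other condition within 500 bp of their centre. Strong lost promoter sites without such a neighbour included MRPL24 at 19.8 and a site at RN7SL2 of 26.7. The RN7SL2 site lay 9.43 kb from the nearest protein-coding start (NEMF), and an R1881 site lay 549 bp from it, just past this limit. Another was a site at the pseudogene RPL34P11 within ZCWPW2, whose 23.3 normalized tags were 27 tags with a score of 11. Strong lost distal sites away from gaps and ends were similar to the last, with 41 tags and a score of 17 at ISOC1 (35.3) and 33 tags and a score of 16 at BCOR (28.4).

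TRIM28 was listed with R1881 at 44.4% of gained (43.2 to 45.5), 67.1% of kept (65.2 to 69.0) and 41.1% of lost HA-TRIM24 sites (39.3 to 43.0). With ethanol it was listed at 47.3%, 70.7% and 57.9%. Its own listing differed between promoters and distal sites. At gained promoters away from gaps and ends, TRIM28 was listed with R1881 only at 9.81% (8.78 to 10.9) and with ethanol only at 26.7% (25.1 to 28.3), and at lost promoters the shares were 8.04% and 29.8%. At gained distal sites the order was turned, with 21.0% R1881 only (19.6 to 22.5) and 11.4% ethanol only (10.3 to 12.5). At lost distal sites it was 7.40% (5.99 to 9.10) and 22.2% (19.8 to 24.7), and at kept distal sites 11.0% and 13.5%. Gained distal sites with an ARE had TRIM28 with R1881 only at 30.5% (24.9 to 36.7) and with ethanol only at 6.44% (3.94 to 10.3). Gained distal sites without an ARE still had 20.2% (18.8 to 21.7) and 11.8% (10.7 to 13.0). The TRIM28 ethanol library held 25145171 tags and the R1881 library 14231181, so the ethanol list reaches weaker sites, and levels of these shares carry that difference in depth.

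**Figure D5:**
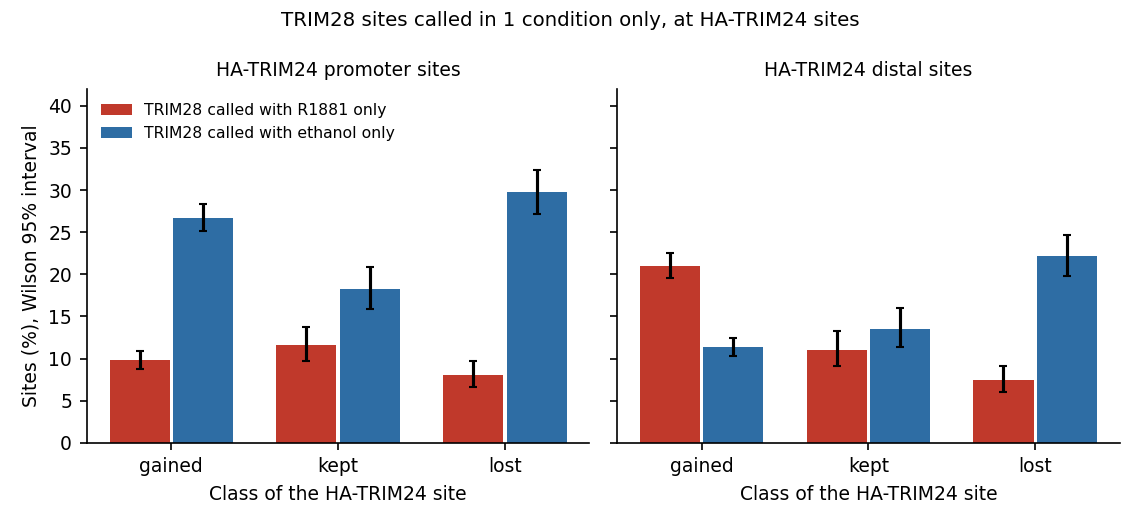
Percent of HA-TRIM24 sites away from gaps and ends (y axis, with Wilson 95% intervals) where TRIM28 was listed with R1881 only (red) or with ethanol only (blue), for gained, kept and lost promoter sites (left) and distal sites (right). Of these 6 groups, the R1881-only share is the higher one at gained distal sites alone, 21.0% against 11.4%.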

How the data were processed

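The authors aligned reads to hg19 with BWA 0.6.1 and called sites per sample with HOMER 4.1 (findPeaks), per the file headers without input, requiring 4 times the local (10 kb) tag density and a local Poisson p-value of 1e-04 or lower. The deposited peak-shape column, a fraction written by the authors' peak caller, was not used. The deposited normalized tag count is a signal of whole tags scaled to 10000000, not limited to 1 per base, while the deposited score is. The deposited local fold change, a ratio, served only as an alternative measure. From these lists, overlaps, positions against GENCODE release 44 on GRCh37, motif matches and flanking windows were computed with Python 3.11.15, pandas 2.3.3, scipy 1.17.1 and pyfaidx 0.9.0.4. Shares have Wilson 95% intervals, and ratios have exact binomial (Clopper-Pearson) intervals. The overlap, motif and interval code was tested on simulated data. The study's methods describe random picking of reads to equalize libraries, whereas the file headers give unequal totals, and the header totals were used. Genes were assigned by the nearest protein-coding start site.

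The named items were 12 genes of androgen signalling and TRIM24 regulation, the strongest gained, lost and kept sites, the kept sites with the largest and smallest ratios, the leading genes of each list and the strongest gained sites with an ARE. The members, lists and this rule were chosen with earlier results of these data known. Sites on chromosome Y and contigs were left out of the comparisons. Some genes and sites are not reported here.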

Additional observations from a re-analysis of the deposited data

Results flagged for a closer look

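HA-TRIM24 and TRIM28 moved in opposite directions in the number of sites on chromosomes 1 to 22 and X. The log2 ratio of R1881 to ethanol sites was 0.86 for HA-TRIM24 and -0.76 for TRIM28. The TRIM28 libraries held 25145171 tags with ethanol and 14231181 with R1881, so the ethanol list reaches weaker sites, and the part of depth in the TRIM28 value was not tested. Each protein has 1 sample per condition, so this difference was not tested. Outside the chromosomes compared, on chromosome Y and unplaced contigs, the lists held 357 HA-TRIM24 sites with R1881 and 278 with ethanol, each with the tags that the calling required.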

How the results depend on the processing

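Nothing here measures variation between cultures, and most sites lie near the 9-tag minimum, so weak binding was not detectable in either library. Without an input, tags from repeats and copied sequence stay in the counts. Of 87 alternative values for 19 results, 49 moved by more than the counting interval, or by over 1.5 times for counts. The only change of sign was in the median log2 ratio at kept sites. It was -0.025 in the main setting and 0.0014 away from gaps and ends. The cause of these shifts was not tested. No paired analysis was possible because each condition has 1 sample. Alternatives away from gaps and ends, with distal sites alone, by the score, and all those for B box and 5S sites were chosen after seeing the data.

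The share of R1881 sites kept, 25.5%, was 28.5% with centres at most 500 bp apart, 21.4% with a reciprocal overlap of 50%, 35.5% with 10 or more normalized tags, 28.0% with one minimum of normalized tags for both lists, 26.6% with all chromosomes and contigs, and 22.5% away from gaps and ends. With 10 or more normalized tags there were 2445 gained, 1344 kept and 1447 lost sites. The median log2 ratio at kept sites was 0.0014 away from gaps and ends. At B box and 5S sites it was 0.78 by the score and 0.42 by fold over the local region.

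For gained, kept and lost sites in turn, the promoter share was 42.5%, 40.9% and 45.5% within 1 kb of a start site, and 37.4%, 31.0% and 39.1% with protein-coding transcripts only. With 10 or more normalized tags it was 42.7% of gained and 36.5% of kept sites, and away from gaps and ends 52.6% of kept and 51.9% of lost sites. The TRIM28 share was 47.3%, 70.7% and 57.9% with the ethanol list, 19.5%, 45.3% and 17.2% with the strongest 10000 TRIM28 sites, and 53.5%, 71.5% and 48.8% at 10 or more normalized tags. It was 65.1% of kept sites away from gaps and ends.

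The ARE share was 0.909%, 0.131% and 0.0753% with up to 1 mismatch, and 2.77%, 0.261% and 0.301% in windows of 100 bp. In gained sites it was 5.52% at 10 or more normalized tags and 6.94% at distal sites. The forkhead share was 6.96%, 4.74% and 5.87% in windows of 100 bp and 17.1%, 10.5% and 14.8% at distal sites, and it was 12.4% of gained and 5.88% of kept sites at 10 or more normalized tags. The ARE share was larger in gained than in kept or lost sites in each of these alternatives. Genes with a gained site numbered 4050 within 50 kb and 2496 with promoter sites only.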
